A study of Mus musculus with 2 samples.

Results

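Hyaluronan, a long sugar polymer of the extracellular matrix, is bound at the cell surface by several receptors and cut by hyaluronidases. The 7 genes described here are 5 listed as hyaluronan receptors (*Lyve1*, *Cd44*, *Stab1*, *Hmmr* and *Layn*) and 2 hyaluronidases (*Hyal1* and *Hyal2*), of 32285 genes in the deposited tables. They were chosen by name for a listed role in hyaluronan binding or breakdown and not by their values, and each was followed through every class of immune cell in both libraries. The study asked what LYVE-1 does in macrophages of the injured newborn heart, and the comparison made here is whether transcripts of the other hyaluronan receptors and hyaluronidases differed in the library without *Lyve1*.

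The 2 libraries were made by 5′ single-cell RNA sequencing of live (7-AAD-negative) CD45+ cells, sorted after enzymatic digestion of ventricles with the atria removed. A pool of 5 wild-type (WT) hearts gave one library and a pool of 5 *Lyve1* KO hearts the other, all from mice of 9 days of age that had a myocardial infarction at postnatal day 2, 7 days earlier. The KO is global, so the lymphatic endothelium of these mice carried it as well as the macrophages, and the WT strain of this library is not given in the sources used here, so strain and genotype cannot be told apart. There was 1 library per genotype and therefore no replicate: no difference between the libraries was tested, and every interval given is a 95% interval that covers counting error only. The intervals are exact for counts (Poisson) and for shares of cells (Clopper-Pearson). Those of log2 ratios are approximate and combine the exact bounds of the 2 counts in quadrature. Levels are unique molecular identifiers (UMIs) per 1000000 UMIs of the same cells (CPM), and differences are log2 ratios of KO over WT on the log2(CPM + 10) scale, which understates differences of low genes. After filtering, 4187 cells of the WT library (63602890 UMIs, median 11106 a cell) and 3391 of the KO library (57340787 UMIs, median 12869) were kept. The libraries shared 9 cell barcodes.

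Cells were clustered without any of the hyaluronan genes and named from marker lists. The CCR2- macrophage-like class held 1078 cells of the WT library and 470 of the KO library, which is 25.7% and 13.9% of the cells kept. All 10 markers of CCR2- macrophages were detected in it in both libraries, with summed levels of 6681 CPM for WT and 6318 CPM for KO. The other classes were CCR2+ macrophage-like (198 and 195 cells), monocyte-like (415 and 452), neutrophil-like (350 and 336), dendritic cell-like (59 and 38), mast cell or basophil-like (30 and 15), B cell-like (427 and 496), T cell-like (351 and 390) and NK cell or ILC-like (139 and 202). A further 1140 and 797 cells, most of them of low depth, were left unnamed.

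LYVE-1 is the hyaluronan receptor of lymphatic endothelium and of resident macrophages that sit along vessels, and CD44 is a receptor of the same link-domain family that most leukocytes carry and use to adhere to and roll on hyaluronan. Stabilin-1, encoded by *Stab1*, is a scavenger receptor of sinusoidal endothelium and alternatively activated macrophages. RHAMM, encoded by *Hmmr*, binds hyaluronan at the surface and the spindle during mitosis, and layilin, encoded by *Layn*, is a membrane receptor linked to the actin cytoskeleton. HYAL2 cleaves large hyaluronan at the cell surface and HYAL1 degrades the fragments in lysosomes.

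On GRCm38 the genes lie on 5 chromosomes. *Lyve1* lies at chr7:110850607-110863239, *Cd44* at chr2:102811141-102901665, *Hmmr* at chr11:40701395-40733422, *Stab1* at chr14:31139013-31168641 and *Layn* at chr9:51054640-51077094, all on the minus strand. The hyaluronidase genes are close neighbours on the plus strand, *Hyal2* at chr9:107567945-107572779 and *Hyal1* at chr9:107576927-107581710. *Hyal1* overlaps *Naa80* and *Hyal3* on the same strand, so its counts are uncertain where reads could belong to either neighbour, whereas *Lyve1* and *Hmmr* overlap no other annotated gene. The promoter of *Hmmr* is shown because its transcript was highest in cells scored as G2/M, and CCAAT boxes upstream of the start are a known feature of genes of the G2 and M phases. The 250 bases upstream of the RefSeq transcription start (GRCm38.p6, chr11:40733438-40733687, minus strand) are written 5′ to 3′ with each ATTGG, the CCAAT box read on the other strand, in capitals.

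Hmmr: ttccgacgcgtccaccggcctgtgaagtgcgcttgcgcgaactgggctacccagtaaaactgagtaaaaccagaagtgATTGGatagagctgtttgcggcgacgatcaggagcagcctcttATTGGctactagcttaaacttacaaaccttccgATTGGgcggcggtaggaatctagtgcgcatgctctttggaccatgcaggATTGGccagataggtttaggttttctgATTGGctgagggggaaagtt

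The window held 5 boxes, beginning at -172, -129, -96, -47 and -20 from the start. CCAAT or ATTGG was searched on both strands of 27025 promoter windows of the same length, of which 34.5% held at least 1 box and 63 (0.233%) held 5. The windows of *Stab1* and *Hyal1* held 1 box each, and those of *Cd44*, *Hyal2* and *Layn* held none. These matches describe letters in a window and not bound sites.

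*Lyve1*, the deleted gene, was read first as a check of the labels. In CCR2- macrophage-like cells it was at 545.8 CPM (537 to 554) in the WT library and 21.7 CPM (19.4 to 24.3) in the KO library. The library labelled KO was 25.1-fold lower, a log2 ratio of -4.13 (-4.24 to -4.01), which goes with its label. A WT cell of this class held up to 404 *Lyve1* UMIs and a KO cell up to 8. With every cell thinned to 10300 UMIs, 41.7% (38.6 to 44.9) of 987 WT cells and 16.3% (12.9 to 20.1) of 436 KO cells held a *Lyve1* UMI, against 0.457% (0.0116 to 2.52) of 219 WT and 6.48% (4.06 to 9.74) of 324 KO B cell-like cells. Before thinning, 45.3% of the WT and 28.3% of the KO cells of the class held one (median depth 24124 UMIs in WT, 26194 in KO). In the WT library the other named classes held between 0 and 5.25 CPM, so the CCR2- class stood apart. The interval of CCR2+ macrophage-like cells (5.25 CPM, 3.43 to 7.69) lay above those of monocyte-like, dendritic cell-like, T cell-like and B cell-like cells. Below the CCR2- class each class overlapped the next in order. Dendritic cell-like cells of the WT library held 0 *Lyve1* UMIs, which by a limit of 3 counts, used for each count of 0 in place of the Poisson interval, allows a level of up to 2.24 CPM.

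Some *Lyve1* reads remained in the KO library, and they were spread over classes that held almost none in WT. NK cell or ILC-like cells held 1.30 CPM in WT (3 UMIs) and 23.1 CPM in KO (90 UMIs). Most of these came from the cluster led by *Areg*, *Il5* and *Csf2*, cytokines of group 2 innate lymphoid cells, where the level was 1.07 CPM (0.0270 to 5.94) in WT and 51.6 CPM (40.1 to 65.3) in KO, with a UMI in 1 of 47 and 24 of 55 cells. T cell-like cells went from 0.602 to 8.33 CPM and B cell-like cells from 0.328 to 5.35 CPM. CCR2+ macrophage-like cells held 5.25 CPM in the WT library and 23.2 CPM in the KO one, a log2 ratio of 1.12 (0.85 to 1.37), which turned to -0.91 when doublets were kept. So in the KO library the CCR2- class, at 21.7 CPM, was no longer the highest: its interval overlapped those of mast cell or basophil-like, CCR2+ macrophage-like, NK cell or ILC-like and dendritic cell-like cells. The source of these reads was not tested. Beside macrophages, the study's antibody list gives LYVE-1 for lymphatic endothelium and endocardium, and endocardium had no marker list here. Lymphatic endothelium was represented by 6 markers, whose sum within the CCR2- class was 9.32 CPM in the WT library and 7.32 CPM in the KO library. *Ccl21a* and *Mmrn1* were at 0 in WT and *Mmrn1* at 0 in KO. In NK cell or ILC-like cells of the KO library all 6 were at 0. The CCR2+ macrophage-like class had sums of 37.6 CPM in WT and 64.1 CPM in KO. There 1 marker held 37.4 and 63.7 CPM, and 4, *Prox1* and *Flt4* among them, were at 0 in both libraries.

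**Figure D1:**
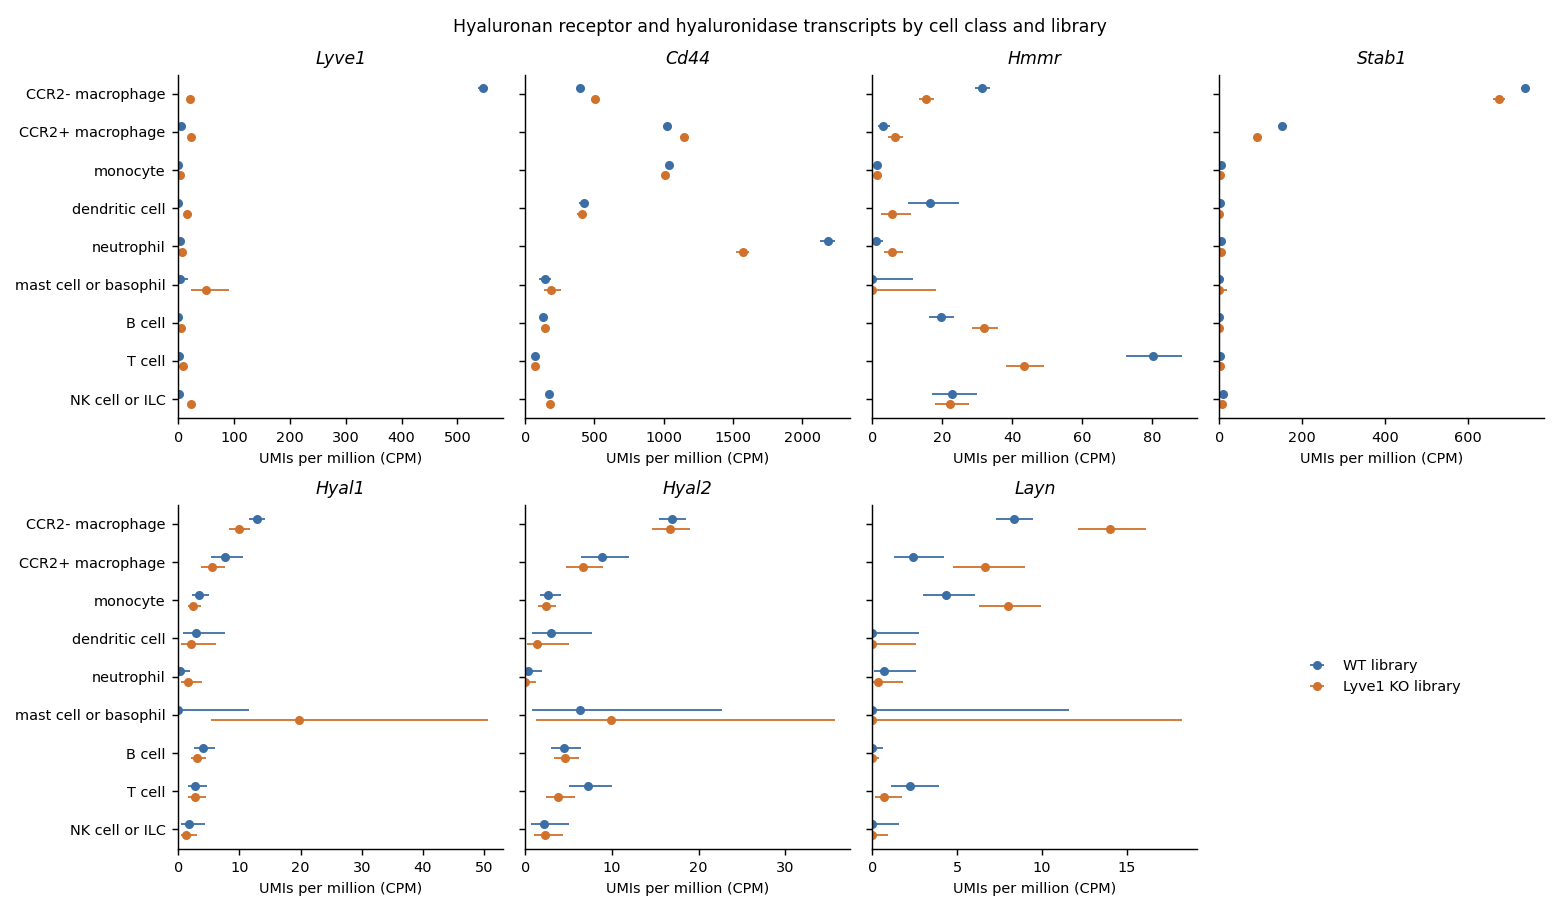
Level of each of the 7 genes in CPM (horizontal axes, one scale per gene) in 9 cell classes (rows) for the WT and the *Lyve1* KO library; points are class sums and bars exact 95% Poisson intervals. *Lyve1* and *Stab1* peak in the CCR2- macrophage-like class, *Cd44* in the neutrophil-like class and *Hmmr* in the T cell-like class of the WT library.

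The other 6 receptors and hyaluronidases stayed within a log2 ratio of 1 in every class where they could be compared. Over the 7 classes large enough to compare, a gene was taken up where it had at least 100 UMIs in both libraries together. Mast cell or basophil-like cells were not compared, and there *Hyal1* was at 0 CPM in WT and 19.8 CPM (4 UMIs) in KO. A log2 ratio of 1 in size on that scale was the mark of a large difference. *Layn*, at 8.33 CPM in CCR2- and 4.34 CPM in monocyte-like cells of WT, could not have passed that mark by loss. The CPM added to each level before the logarithm exceeds these levels. *Hmmr* in the CCR2- class was also affected: without the added CPM it was 2.04-fold lower in the KO library. In CCR2- macrophage-like cells all 7 genes were measured and only *Lyve1* passed that mark, where 54 of 10984 genes (0.492%) did. Of the other 6 genes 0 passed it, and their median size of difference was 0.27, beside 0.11 over all genes measured. In CCR2+ macrophage-like cells 3 of the 7 were measured and *Lyve1* alone passed (background 0.539%). In the remaining classes 0 passed: 2 were measured in monocyte-like cells (background 0.217%), 1 in neutrophil-like (0.879%), 2 in B cell-like (0.664%), 2 in T cell-like (1.39%) and 2 in NK cell or ILC-like cells (0.661%).

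**Figure D2:**
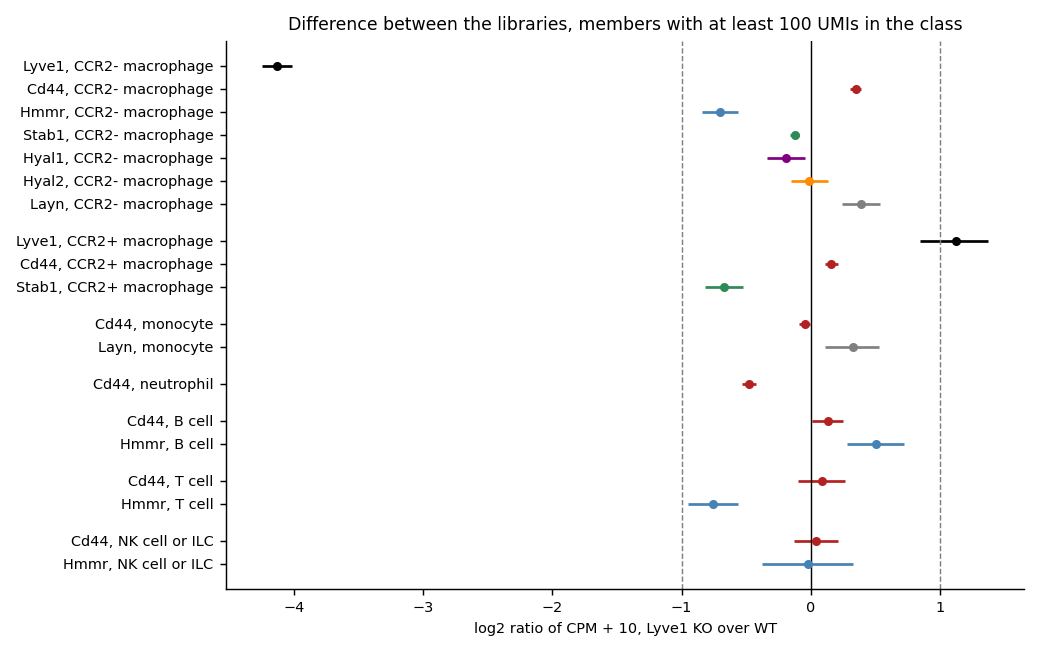
Log2 ratio of KO over WT on the log2(CPM + 10) scale (horizontal axis) for every gene of the 7 with at least 100 UMIs in a class (rows), with 95% counting intervals. *Lyve1* lies at -4.13 in the CCR2- class and 1.12 in the CCR2+ class, and the other genes lie between -0.76 and 0.50.

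*Cd44* was the most widely detected of the receptors. In the WT library it was highest in neutrophil-like cells (2185 CPM), followed by monocyte-like (1041 CPM) and CCR2+ macrophage-like cells (1025 CPM), whose intervals overlapped. Dendritic cell-like (423 CPM) and CCR2- macrophage-like cells (392 CPM) came next and also overlapped, and the lymphoid classes were lower, at 170 CPM in NK cell or ILC-like, 132 CPM in B cell-like and 67.2 CPM in T cell-like cells. Within the WT library the CCR2+ class was above the CCR2- class by a log2 ratio of 1.36 (1.32 to 1.41) and the monocyte-like class by 1.38 (1.34 to 1.43). In the KO library the same ratios were 1.18 (1.13 to 1.22) and 0.99 (0.95 to 1.03). Summed over each class, *Cd44* therefore stayed lowest in the CCR2- class among these 3 myeloid classes in both libraries, by a smaller margin in the KO library. Not every cluster of the class was low. In the WT library its cluster led by *Olfml3* held 241 CPM and that led by *Saa3* 890 CPM. In its cluster led by *Cd207*, 53 thinned WT cells without a *Lyve1* UMI held 1084 CPM (999 to 1175).

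The smaller margin went with a higher *Cd44* level in the CCR2- class of the KO library. It was 392 CPM (385 to 400) in WT and 501.5 CPM (490 to 513) in KO, a log2 ratio of 0.35 (0.30 to 0.39), and 6.19% of all genes measured in the class differed by as much or more. The share of thinned cells with a *Cd44* UMI was 82.5% (80.0 to 84.8) in WT and 83.0% (79.2 to 86.4) in KO, so the difference in level was not matched by one in the share of cells. All 5 clusters of the class with at least 20 cells in each library had the higher value in KO, 4 of them with an interval that left out 0. The cluster led by *Ccl8*, *Cd209f* and *Lyve1*, which also carried *Folr2* and *Cd163* and had the highest *Lyve1* level of the WT library (1587 CPM), went from 270 to 411 CPM of *Cd44*, a log2 ratio of 0.59 (0.49 to 0.69). The cluster led by *Gdf15* and *Cd83* hardly differed, at 474 and 483 CPM (0.02, -0.10 to 0.15).

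Marker lists were read beside *Cd44* in the CCR2- class, where the median log2 ratio over all genes measured was -0.06. Of 10 monocyte markers 6 were higher in KO, and so were 6 of the 10 markers of CCR2- macrophages. The monocyte markers summed to 107 CPM in WT (each between 0.285 and 35.0) and 387 CPM in KO (0.142 to 251). *Chil3* went from 1.32 to 251 CPM while *Ly6c2*, which marks classical monocytes, was at 0.605 and 0.142 CPM. The 10 markers of CCR2+ macrophages, 5 of them higher in KO, summed to 2035 and 2750 CPM. Among them *Fn1* was at 521 and 1278 CPM and *Thbs1* at 158 and 359 CPM. *Tgfbi*, *H2-Aa*, *H2-Ab1*, *H2-Eb1* and *Cd74* were lower in KO. In the *Ccl8* cluster the monocyte markers summed to 62.9 and 63.0 CPM, and *Cd44* was at 270 and 411 CPM. The cluster led by *Saa3*, *Prg4* and *Marco* held 63 WT and 48 KO cells, monocyte markers of 506 and 1732 CPM, and *Cd44* at 890 and 960 CPM. Although it was named CCR2- macrophage-like, its CCR2+ macrophage markers summed to 6882 and 8709 CPM, above its CCR2- markers at 4711 and 4696 CPM. In the CCR2+ macrophage-like class of WT those 2 lists summed to 19625 and 1309 CPM. Without the *Saa3* cluster the *Cd44* ratio of the CCR2- class was 0.22, and with clusters weighted alike in both libraries it was 0.24. Cells with a Y-linked and no *Xist* UMI, from male hearts, made up 67.1% (64.2 to 69.9) of the class in WT and 51.9% (47.3 to 56.5) in KO, and the *Cd44* ratio was 0.51 in them and 0.13 in cells from female hearts. The part of these markers and of the mix of hearts in the result was not tested.

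Elsewhere *Cd44* differed less or in the other direction. CCR2+ macrophage-like cells held 1025 CPM for WT and 1145 CPM for KO, a log2 ratio of 0.16 (0.11 to 0.21). Monocyte-like cells held 1041 and 1007 CPM (-0.05, -0.09 to -0.01). Neutrophil-like cells showed the largest difference of *Cd44* in size, from 2185 CPM (2130 to 2240) in WT to 1570 CPM (1525 to 1615) in KO, a ratio of -0.47 (-0.53 to -0.42). All 3 neutrophil-like clusters had the lower value in KO, at -0.22 for that led by *Stfa1*, -0.27 for *Ngp* and -0.54 for *Acod1*. The *Acod1* cluster, with *Cd44* at 4315 and 2956 CPM, held 78 WT and 40 KO cells. The part of this mix of clusters in the class ratio was not tested. In cells from female hearts, of which there were only 26 and 36 of this class, the neutrophil ratio was 0.17. The lymphoid classes held *Cd44* at nearly even levels: the ratio was 0.13 (0.01 to 0.25) in B cell-like, 0.08 (-0.10 to 0.27) in T cell-like and 0.04 (-0.13 to 0.21) in NK cell or ILC-like cells. In T cell-like cells this near-even value combined -0.92 in cells from male hearts and 1.30 in those from female hearts. Among the T cell-like clusters the *Cd44* ratio ran from -1.08 to 0.86. The highest was in the cluster led by *Arpp21*, *Dntt*, *Myb* and *Rag1*, at 5.11 and 17.3 CPM.

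*Stab1* was a transcript of macrophages in both libraries. Its level in the CCR2- class was 737 CPM (727 to 747) for WT and 674 CPM (661 to 688) for KO, and 95.1% (93.6 to 96.4) and 94.0% (91.4 to 96.1) of thinned cells held a UMI. It was at 152 and 91.6 CPM in the CCR2+ class and between 0 and 8.64 CPM in all other named classes of both libraries. The CCR2- ratio of -0.13 (-0.16 to -0.09) was a small one, as 41.9% of genes differed by as much, and it was 0.01 without the *Saa3* cluster and 0.07 in cells from female hearts. Among the 5 clusters it was lower in KO in 4, from -0.74 in the *Saa3* cluster (271 to 158 CPM), and 0.23 in the cycling cluster led by *Cenpf* (672 to 793 CPM). The *Ccl8* cluster, with the highest *Stab1* level among the CCR2- clusters of WT, was at 963 and 956 CPM (-0.01, -0.07 to 0.05). In CCR2+ macrophage-like cells the ratio was -0.67 (-0.82 to -0.52), and 1.53% of the genes measured there differed by as much. It ran from -0.84 in cells from male hearts to -0.40 at a finer cluster resolution, and was -0.19 as a mean of log-normalized values.

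**Figure D3:**
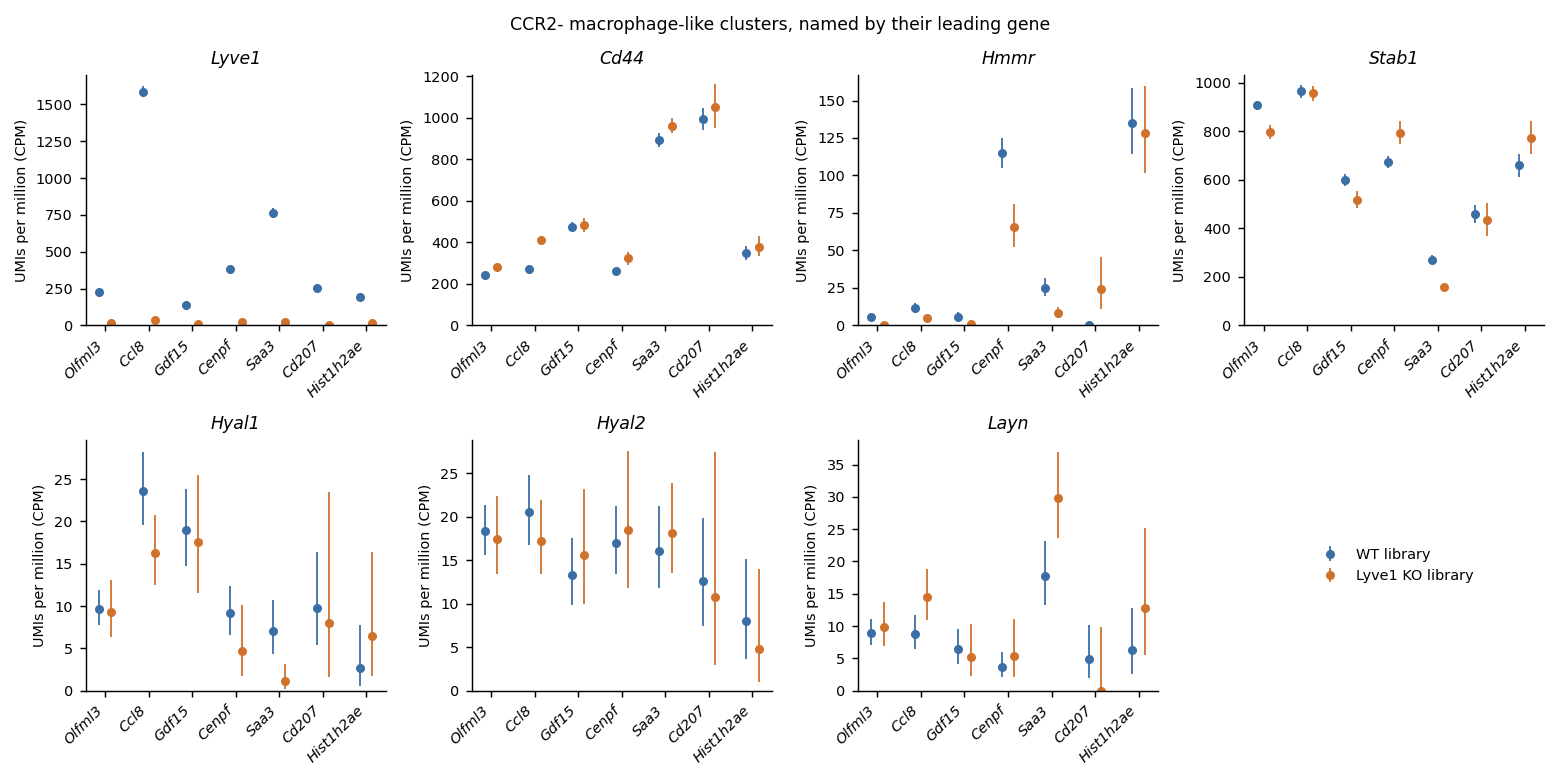
Level of each gene in CPM (vertical axes) in the CCR2- macrophage-like clusters, named by their leading gene (horizontal axis), for both libraries with exact 95% Poisson intervals. *Cd44* is higher in the KO library in the *Ccl8* cluster (270 and 411 CPM), where *Stab1* is even (963 and 956 CPM), and the *Cd207* and *Hist1h2ae* clusters hold only 17 KO cells each.

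*Hmmr* was concentrated in few cells. In the WT library T cell-like cells were highest (80.3 CPM, 72.6 to 88.5), followed by CCR2- macrophage-like (31.4 CPM), NK cell or ILC-like (22.9 CPM) and B cell-like cells (19.7 CPM). Monocyte-like and neutrophil-like cells of that library held 1.40 and 1.06 CPM. Within the T cell-like class of WT the *Arpp21* cluster held 129 CPM and the others between 0 and 31.2 CPM. Of the *Hmmr* UMIs of the CCR2- class, 99.1% in WT and 100% in KO came from the 10% of cells that held most.

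In the CCR2- class *Hmmr* was at 31.4 CPM (29.4 to 33.6) in WT and 15.4 CPM (13.4 to 17.6) in KO, a log2 ratio of -0.70 (-0.84 to -0.56), and 1.26% of genes differed by as much. All 5 clusters with 20 cells in each library had the lower value in KO, between -0.96 and -0.52, each with an interval that left out 0. No limit of UMIs was set for clusters, and the KO levels were 0.281 CPM in the *Olfml3* and 0.650 CPM in the *Gdf15* cluster. In the whole class 116 WT and 34 KO cells held a *Hmmr* UMI. The counting intervals do not take into account that the UMIs came from few cells. The phase of each cell was scored with *Hmmr* itself left out of the gene list. By that score, cells in G2/M held 237 CPM (221 to 254) in WT and 168 CPM (146 to 193) in KO, cells in S phase 10.9 and 1.88 CPM, and cells in G1 0.168 and 0.281 CPM. G2/M cells were 10.3% (8.55 to 12.3) of the class in WT and 7.23% (5.06 to 9.96) in KO, and S-phase cells 20.6% (18.2 to 23.1) and 13.0% (10.1 to 16.4). The 6 proliferation markers, *Mki67* among them, were all lower in KO and summed to 671 CPM in the WT library and 432 CPM in the KO one, a ratio of -0.62 beside the -0.70 of *Hmmr*. The *Hmmr* ratio was -1.27 in cells from male hearts and -0.21 in those from female hearts.

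The lymphocytes gave *Hmmr* differences of either sign, and proliferation markers moved the same way in T cell-like and B cell-like cells but not in NK cell or ILC-like cells. In T cell-like cells *Hmmr* was at 80.3 CPM for WT and 43.4 CPM for KO (-0.76, -0.95 to -0.56), with proliferation markers summing to 2743 and 1340 CPM. The *Arpp21* cluster held 139 WT and 71 KO cells of the class, at 129 and 111 CPM (-0.21, -0.45 to 0.03). With the T cell-like clusters weighted alike the class ratio was -0.11. It turned to 0.28 in cells from male hearts (40.4 and 51.1 CPM), beside -1.18 in those from female hearts (106.5 and 41.5 CPM). In B cell-like cells *Hmmr* was at 19.7 and 32.0 CPM (0.50, 0.28 to 0.72), with markers at 600.3 and 876 CPM. That ratio was 0.15 in B cell-like cells from male hearts (25.05 and 29.0 CPM), while those from female hearts held 0 UMIs in 88 WT cells and 40.8 CPM in 160 KO cells, and the small cluster that held most *Hmmr* UMIs of the class, led by immunoglobulin genes, had 13 WT cells at 140 CPM and 31 KO cells at 146 CPM. In NK cell or ILC-like cells *Hmmr* was at 22.9 and 22.3 CPM (-0.02, -0.38 to 0.33), with markers at 458 and 616 CPM.

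**Figure D4:**
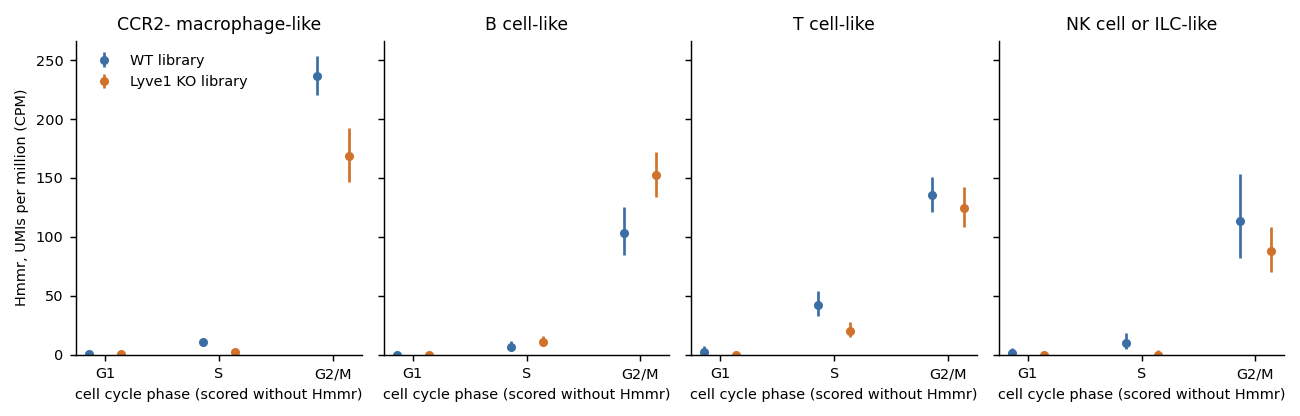
*Hmmr* level in CPM (vertical axis) by cell cycle phase (horizontal axis) in cells of both libraries, one panel per class, with exact 95% Poisson intervals. In the CCR2- class G2/M cells hold 237 CPM in the WT library and 168 CPM in the KO one, while G1 cells hold under 1 CPM in both libraries.

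*Layn* was a rare transcript, highest in CCR2- macrophage-like and then in monocyte-like cells in both libraries. In the CCR2- class it was at 8.33 CPM (7.30 to 9.47) in WT and 14.0 CPM (12.1 to 16.1) in KO, a ratio of 0.39 (0.24 to 0.54) that 4.79% of genes matched or passed in size. The share of thinned cells with a UMI was 7.29% (5.75 to 9.10) in WT and 11.2% (8.43 to 14.6) in KO, with intervals that overlapped. B cell-like cells held 0 *Layn* UMIs in 427 WT and 496 KO cells, which allows shares of cells with a UMI of up to 0.703% and 0.605% and does not limit expression at this depth. The ratio was largest in the *Saa3* cluster, 17.7 to 29.8 CPM (0.52, 0.17 to 0.87), and in the *Ccl8* cluster it was 0.38 (0.07 to 0.69), from 8.79 to 14.5 CPM. Without the *Saa3* cluster it was 0.23 over the class, and with clusters weighted alike 0.18. Monocyte-like cells were at 4.34 CPM for WT and 7.96 CPM for KO (0.32, 0.11 to 0.53). That difference lay in the cluster led by *Ace*, *Eno3* and *Treml4*, genes of non-classical monocytes, with 3.32 and 11.9 CPM, while the cluster led by *S100a8* and *Ly6c2* was at 4.80 and 5.58 CPM. The CCR2+ class held 12 WT and 40 KO UMIs, under the 100-UMI limit, at 2.42 and 6.62 CPM. T cell-like cells held 11 and 4 UMIs, at 2.21 and 0.694 CPM, and their WT interval overlapped that of the CCR2+ class. In WT the *Arpp21* cluster held 3.75 CPM and the other T cell-like clusters 0.

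Of the hyaluronidases, *Hyal2* had the smallest difference of the 7 genes in the CCR2- class. It was at 16.9 CPM (15.4 to 18.5) in WT and 16.7 CPM (14.6 to 19.0) in KO, a log2 ratio of -0.01 whose counting interval ran from -0.15 to 0.13. Thinned cells held a *Hyal2* UMI in 14.0% (11.9 to 16.3) and 13.8% (10.7 to 17.4), and 0 of 5 clusters had an interval that left out 0. *Hyal1* was at 12.8 CPM (11.5 to 14.2) and 9.95 CPM (8.37 to 11.7), a ratio of -0.19 (-0.34 to -0.04), and 22.1% of genes differed by as much. All 5 clusters had the lower *Hyal1* value in KO, but the interval left out 0 in only 2, the *Ccl8* cluster (23.6 to 16.3 CPM) and the *Saa3* cluster (7.03 to 1.09 CPM). The shares of thinned cells with a *Hyal1* UMI were 10.9% (9.06 to 13.1) and 11.0% (8.23 to 14.3). Outside the CCR2- class neither hyaluronidase reached 100 UMIs in a named class. *Hyal2* was at 7.23 CPM (36 UMIs) in WT and 3.82 CPM (22 UMIs) in KO in T cell-like cells, and *Hyal1* at 4.09 and 3.12 CPM in B cell-like cells.

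Within the WT library the CCR2- macrophage-like cells could be compared by whether they held *Lyve1*. Of the 987 thinned cells 412 held a *Lyve1* UMI, and 32.0% (29.1 to 35.0) held both a *Lyve1* and a *Cd44* UMI. *Cd44* was at 318 CPM (301 to 336) in cells with a *Lyve1* UMI and 424 CPM (407 to 441) in cells without one. *Stab1* went the other way, at 950 CPM (921 to 980) with and 627 CPM (607 to 648) without, as did, over the class, *Hyal2* (21.4 and 12.5 CPM) and *Layn* (11.3 and 5.07 CPM), while *Hmmr* was at 17.0 and 26.7 CPM. *Hyal1* was at 16.3 and 10.8 CPM with overlapping intervals, and 46 of the 69 *Hyal1* UMIs of cells with *Lyve1* came from the *Ccl8* cluster. Within the *Olfml3* cluster *Hyal1* was at 5.55 CPM with and 10.4 CPM without a *Lyve1* UMI, again with overlapping intervals. The *Cd44* order was the same within the clusters led by *Olfml3* (194 and 251 CPM), *Gdf15* (381 and 470 CPM) and *Cenpf* (239 and 286 CPM) and opposite in the *Saa3* cluster (1072 and 949 CPM), but the intervals overlapped in the last 3 of these clusters. *Stab1* was higher in the cells with a *Lyve1* UMI in each of these 4 clusters, from 1226 against 787 CPM in the *Olfml3* cluster to 633 against 586 CPM in the *Gdf15* cluster, where the intervals overlapped. These cells share 1 library, so the differences describe cells of that pool. KO cells of the class gave the same order for *Cd44* and *Stab1*, and with overlapping intervals for *Hyal2* (20.5 and 14.6 CPM) and *Hmmr* (4.10 and 13.6 CPM). *Layn* was nearly even in them, at 12.3 and 12.2 CPM. *Hyal1* had the opposite order, at 8.20 and 13.0 CPM with overlapping intervals. *Cd44* was at 369 CPM (326 to 416) in the 71 with a *Lyve1* UMI and 465 CPM (443 to 487) in the 365 without one, and *Stab1* at 810 and 691 CPM. Of the 71, 30 lay in the *Ccl8* cluster, where the intervals overlapped for *Cd44* (337 and 424 CPM) and *Stab1* (945 and 884 CPM). The source of *Lyve1* UMIs in KO cells was not tested, so this split need not separate cells that express the gene. The 465 CPM was above the 424 CPM of WT cells without a *Lyve1* UMI, but these 2 sets differed in their clusters. Of the *Ccl8* cluster, 92 KO cells were without a *Lyve1* UMI, while 164 WT cells were with one.

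**Figure D5:**
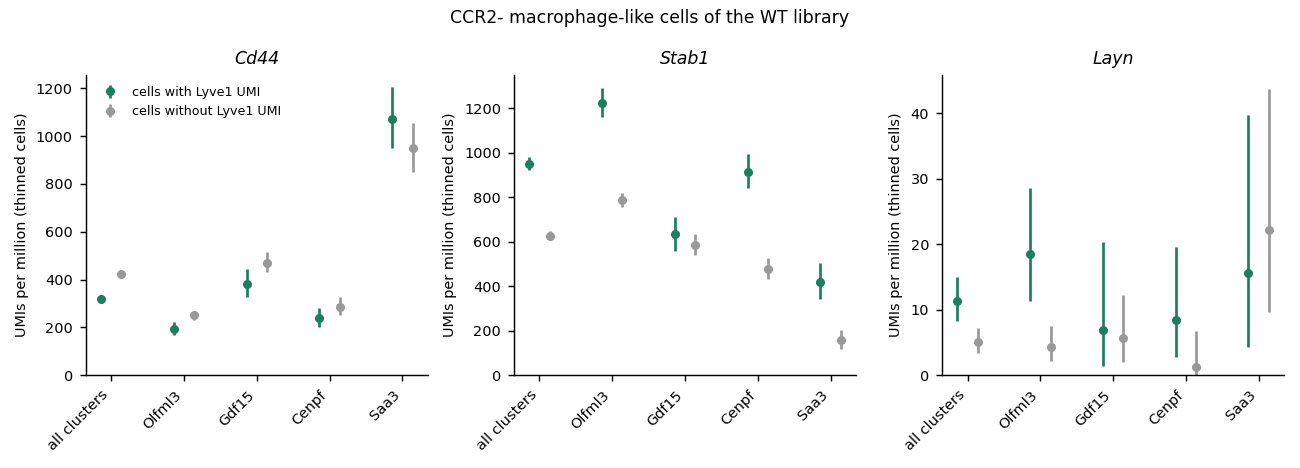
Levels in CPM after thinning (vertical axes) in WT CCR2- macrophage-like cells with and without a *Lyve1* UMI, over all clusters and by cluster (horizontal axis), with exact 95% Poisson intervals. *Cd44* is at 318 CPM with and 424 CPM without a *Lyve1* UMI, and *Stab1* at 950 and 627 CPM.

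The genes with the most similar patterns were read over the 29 WT clusters of at least 30 cells, as Pearson correlations of log2(CPM + 10) among 12517 genes, which describe clusters of 1 library and not independent samples. *Lyve1* was nearest to *Cd163* (r = 0.98), *Folr2* (0.97) and *Fcna* (0.97), all genes of resident macrophages. *Stab1* was nearest to *Scamp5* (0.98), *Gas6* (0.98) and *Mir99ahg* (0.97), and *Hmmr* to *Cep55* (0.95), *Cenpf* (0.94) and *Dlgap5* (0.94), which act in mitosis. *Cd44* had looser partners in *Mapkapk2*, *Fndc3b* and *Tgm2* (0.86, 0.86 and 0.85). For the rarer genes the nearest were *Rab13* for *Hyal2* (0.87), *Gas2l1* for *Layn* (0.86) and *Myl3* for *Hyal1* (0.86), the last of these a cardiomyocyte gene.

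The wider hyaluronan pathway was read from a list of 50 genes that includes the 7. In CCR2- macrophage-like cells 17 genes of the list beside the 7 had at least 100 UMIs. Of these 0 passed a log2 ratio of 1, and the median size of their differences was 0.11, beside 0.11 over all genes measured. Hyaluronan synthases were nearly absent, with *Has1*, *Has2* and *Has3* at 0.299, 0.157 and 0.283 CPM over all WT cells and 0.715, 0.558 and 0.192 CPM over all KO cells. Of the lysosomal enzymes that finish hyaluronan breakdown, *Hexa* was at 503 and 508 CPM in the CCR2- class and *Gusb* at 318 and 294 CPM. *Cemip2*, a cell surface hyaluronidase, was at 45.2 and 51.5 CPM (0.15, 0.04 to 0.26), and *Tlr2*, which senses hyaluronan fragments, at 269 and 297 CPM (0.14, 0.09 to 0.19). *Mmp14*, which can shed CD44 from the surface, had the largest difference of the 17 in size, at 37.6 CPM in the WT library and 26.6 CPM in the KO one (-0.38, -0.51 to -0.25). Stabilin-2, encoded by *Stab2*, was highest in NK cell or ILC-like cells, at 190 CPM over the class in WT and 166 CPM in KO (-0.19, -0.36 to -0.02). A *Stab2* UMI was held by 25 of 139 WT and 30 of 202 KO cells of the class, and *Stab2* was among the leading genes of its *Areg* cluster. Apart from *Lyve1*, the only gene of the list past the mark in a class where it reached 100 UMIs was *Tnfaip6*, which encodes the hyaluronan-binding protein TSG-6. In neutrophil-like cells it was at 146 CPM for WT and 320 CPM for KO, a log2 ratio of 1.08 (0.92 to 1.24), where 0.879% of genes passed, and 99 of 350 WT and 120 of 336 KO cells held it. Below the 100-UMI limit *Hapln3*, which encodes a hyaluronan link protein, had 0 UMIs in WT and 57 UMIs in KO among NK cell or ILC-like cells. The 57 UMIs came from 25 cells and gave 14.6 CPM over the class.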

How the data were processed

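The authors deposited, for each library, a table of raw UMI counts per gene and cell barcode (5713 barcodes and 67968938 UMIs in WT, 5285 and 61555917 in *Lyve1* KO) that per the file headers and the submitters' processing notes came from Cell Ranger 8.0.1 on mm10, with no further normalization. Barcodes with under 500 genes, under 250 UMIs or a mitochondrial share over 30% were left out (601 in WT and 874 in KO for the last reason). Scrublet, run with scanpy 1.11.5, called 1 and 4 doublets by its own threshold, so the highest scores were left out at 0.4% per 1000 barcodes (98 and 73 cells).

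Cells were clustered in Seurat 5.3.0 (2000 variable genes without the hyaluronan list and sex-linked genes, S and G2/M scores regressed out, 30 dimensions, resolution 0.8), in a second step for macrophages and monocytes. Before each step the WT and KO libraries were aligned by Seurat integration (canonical correlation), so clusters shared by both libraries rest on that alignment. Clusters were named from the best-scoring immune marker list, with at least 3 of its markers detected. A cluster was left unnamed if another list held more of its 10 leading genes, or if a non-immune list scored higher. It was also left unnamed if its depth was under 1/3 of the library median and none of its leading genes was in its own list. UMIs were summed per class and library. Shares of cells were taken after thinning each cell to 10300 UMIs (shallower cells left out). A gene was compared in a class from 100 UMIs in both libraries together. A self-test on simulated counts was run and its values are not used here. Depth limits the rare genes *Layn*, *Hyal1* and *Hyal2* most.

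With 1 library per genotype no test was made. The study's assignment of cells to single hearts needs reads and was not used here. Named genes are the 7 genes, the members of the hyaluronan list past a log2 ratio of 1, the 3 nearest genes of each by correlation over WT clusters, and genes of the list given as examples of their role, which were chosen after their values were seen. The 7 genes and all lists were chosen with earlier results of these data known. Gene positions come from GENCODE on GRCm38 and the promoter from RefSeq, where 6 of the 7 genes matched. Alternatives tried are given under the closing observations.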

Additional observations from a re-analysis of the deposited data

How the results depend on the processing

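The cause of each shift was not tested. No paired analysis was possible because each genotype had 1 library and no test was made. Beside the main CCR2- values, *Lyve1* was at -4.59 with a pseudocount of 1 CPM, -1.08 as a mean of log-normalized values, -3.61 with stricter cell limits (1000 genes or more, a mitochondrial share of 10% or less), -3.67 in male and -4.72 in female cells. *Cd44* was at 0.44 with median-ratio scaling, 0.13 as a mean of log values, 0.41 with the stricter limits, 0.41 with doublets kept, 0.51 in male and 0.13 in female cells, 0.24 with clusters weighted alike and, in an alternative chosen after seeing the data, 0.22 without the *Saa3* cluster. *Hmmr* was at -0.98 with 1 CPM, -0.064 as a mean of log values, -0.52 without regression of the cell cycle, -0.53 with doublets kept, -1.27 in male and -0.21 in female cells. *Stab1* was at -0.031 with median-ratio scaling, -0.37 with the stricter limits, -0.17 with doublets kept, -0.26 in male and 0.074 in female cells, and 0.014 without the *Saa3* cluster. *Hyal1* was at -0.016 as a mean of log values. *Layn* was at 0.69 with 1 CPM, 0.036 as a mean of log values, 0.18 with clusters weighted alike and 0.23 without the *Saa3* cluster.

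The *Cd44* ratio of CCR2+ over CCR2- cells in WT was 1.48 as a mean of log values, 1.42 without regression of the cell cycle and 1.28 with the stricter limits, and in KO 1.41 as a mean of log values, 1.12 with all variable genes clustered, 1.02 with the stricter limits and 1.03 with doublets kept. That of monocyte-like cells in WT was 1.28 at resolution 1.2 and 1.27 with the stricter limits, and in KO 1.30 as a mean of log values, 0.89 at resolution 1.2, 0.85 with the stricter limits and 0.92 with doublets kept. Without thinning the *Lyve1* share differed by -17.0 points. *Lyve1* in CCR2+ cells was at -0.91 with doublets kept. Over 13 settings *Lyve1*, *Cd44*, *Hmmr*, *Hyal1* and *Layn* kept the direction of their CCR2- difference in 13, *Hyal2* in 12 and *Stab1* in 11.

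Without replicates, intervals leave out the variation between hearts, and 1 pool per genotype cannot tell genotype from strain; both pools held cells of either sex, in unequal shares. Depth limits the rare genes most: *Hyal1*, *Hyal2* and *Layn* had 360, 475 and 234 UMIs in WT CCR2- cells.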

Other observations

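Unnamed cells, most of them of low depth and outside the comparisons, held *Lyve1* at 70.8 CPM (63.5 to 78.7) in the WT library and 7.56 CPM (5.14 to 10.7) in the KO library. *Stab1* was at 410 CPM (392 to 428) and 158 CPM (146 to 171) in them, and *Cd44* at 860 CPM (834 to 887) and 953.5 CPM (924 to 984). The mix of these cells differed between the libraries: the low-depth cluster led by *Il31ra*, *Myl9* and *Gp9* held 235 WT and 40 KO cells, with *Stab1* at 821 and 428 CPM, and that led by haemoglobin genes 325 and 400 cells, with *Stab1* at 320 and 166 CPM. An unnamed cluster scored nearest to CCR2- macrophages, led by *Gm26917* and *Plxna4*, held 160 WT and 81 KO cells. Its *Cd44* was at 1868 and 3076 CPM and its *Stab1* at 1172 and 824 CPM. In WT CCR2- macrophage-like cells *Lyve1* was at 398 CPM in cells from male hearts and 825 CPM in those from female hearts, while in KO it was at 22.0 and 21.6 CPM. *Cd44* in the same WT cells was at 379 and 404 CPM.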
